A study of Mus musculus with 12 samples.

Results

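The proneural and neurogenic basic helix-loop-helix (bHLH) genes examined here were Neurog1, Neurog2, Neurog3, Atoh1, Neurod1, Neurod2, Neurod4, Neurod6 and Bhlhe22, 9 of the 21951 protein-coding genes in the mouse annotation. They were taken by name, and their H3K4me3 was read from every peak lying within 5 kb of an annotated transcription start site (TSS) of each gene. Neurog1, Neurog2, Neurog3 and Atoh1 were treated as the 4 early proneural factors, and the 5 others as late differentiation factors. H3K4me3 was profiled by CUT&Tag, in which an antibody tethers a transposase to chromatin carrying the mark, in wild-type C57BL/6J mouse embryos. The medial (MGE), lateral (LGE) and caudal (CGE) ganglionic eminences of the ventral forebrain and the cortex (CTX) were dissected, the cortex from its somatosensory part. The dissection protocol names E12.5 and E14.5 (embryonic days), and the study's own text places these libraries at E12.5. The 12 libraries carried 2 replicate numbers in each region and were merged by the authors into 1 peak list a region, so no value below has a replicate error, and no difference between regions could be tested.

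bHLH factors of this family bind DNA at E-boxes as dimers with the widely expressed E proteins. Proneural members act in dividing progenitors, where they switch on Notch ligands and commit cells to a neuronal fate while Hes and Id proteins hold them back, and the NeuroD genes and Bhlhe22 act later, as neurons differentiate. In the forebrain this cascade is best known from the glutamatergic lineage of the cortex, whereas the eminences, which make GABAergic neurons, rely on other factors such as the Dlx genes. H3K4me3 is a histone mark of active and poised promoters.

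The lists differed in build. They held 25339 peaks in the MGE, 17284 in the LGE, 17752 in the CGE and 21442 in CTX, with median widths of 563 bp, 1168 bp, 1240 bp and 701 bp, and they give no read counts behind a peak. The study's methods state fewer sequenced reads for the MGE libraries than for those of the LGE and CGE. Each gene was therefore described both by its covered bases, the bases of its 5 kb window lying under peaks, and by its percentile, the percent of protein-coding genes with fewer covered bases in the same list. All genes without a peak had percentile 0, so even a narrow peak placed a gene far above it. The 138 bases of Neurod2 in the MGE gave 35.7 and the 282 bases of Neurod4 in the LGE 36.1. Such values lay near the bottom of the genes with a peak. As a check of the tissue labels, all 3 MGE markers had peaks in the 3 eminence lists and 1 of 3 did in CTX. They summed to 8385 bases in the MGE, 7853 in the LGE, 12214 in the CGE and 451 in CTX. Their median percentiles in the eminences were 98.9 in the MGE, 95.7 in the LGE and 97.8 in the CGE. These markers thus set CTX apart but hardly separated the MGE list from the CGE list. Against the LGE, Lhx8 differed, with percentiles of 94.4 in the MGE and 58.3 in the LGE. Nkx2-1 (99.2 and 95.7) and Lhx6 (98.9 and 98.3) were close. The 4 cortex markers had peaks in every list, summing to 2431 bases in the MGE, 14770 in the LGE, 16015 in the CGE and 11389 in CTX. The 4 markers shared by the eminences also had peaks in every list, summing to 9385 bases in the MGE, 12734 in the LGE, 14597 in the CGE and 3648 in CTX, lowest in CTX as its label implies. The LGE and CGE lists carried at least as many bases at cortex markers as the CTX list. By percentile, Tbr1 and Eomes ranked highest in the LGE, and Emx1 and Pax6 in CTX. The protocol states that nuclei of all 4 regions were combined in equal numbers before the reaction although each library is labelled with 1 region. From its accessibility data the study describes LGE and CGE nuclei resembling glutamatergic neurons, and proposes that they came from the pallial-subpallial boundary region. The part of either in these values was not tested. Of the markers of other cell types, 0 of 3 microglial genes had a peak in any list, and endothelial, mesenchymal and red cell genes had peaks for 1 or 2 of 3 in each list. In bulk tissue, fewer cells of a type and less of the mark in each cell cannot be told apart.

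The DNA just before the starts of these genes differed in its CpG dinucleotides. RefSeq promoters (GRCm38.p6) were matched for 8 of the 9 genes, with no entry for Bhlhe22. The 250 bases before the RefSeq start are printed for 6 of them, 5′ to 3′ on the strand of the gene, with each CG in capitals, because the start itself lay under a peak in every list for Neurog1 and Atoh1, in 3 lists for Neurog2, and in none for Neurod2, Neurog3 and Neurod6.
Neurog1 (chr13:56252181-56252430, minus strand): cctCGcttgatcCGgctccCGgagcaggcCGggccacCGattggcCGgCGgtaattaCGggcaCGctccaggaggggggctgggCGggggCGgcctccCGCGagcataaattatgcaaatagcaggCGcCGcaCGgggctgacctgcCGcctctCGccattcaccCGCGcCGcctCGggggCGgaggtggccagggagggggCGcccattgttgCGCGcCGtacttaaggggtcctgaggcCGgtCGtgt
Atoh1 (chr6:64728875-64729124, plus strand): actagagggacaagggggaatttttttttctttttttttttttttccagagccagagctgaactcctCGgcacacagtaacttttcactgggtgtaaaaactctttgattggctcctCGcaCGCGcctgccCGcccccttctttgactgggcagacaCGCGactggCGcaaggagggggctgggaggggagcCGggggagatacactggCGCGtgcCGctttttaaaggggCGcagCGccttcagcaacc
Neurog2 (chr3:127632886-127633135, plus strand): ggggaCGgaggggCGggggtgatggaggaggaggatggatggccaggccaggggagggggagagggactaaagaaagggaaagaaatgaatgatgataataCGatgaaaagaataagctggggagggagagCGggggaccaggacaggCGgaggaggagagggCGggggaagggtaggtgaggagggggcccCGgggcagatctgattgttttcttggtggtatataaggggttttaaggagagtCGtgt
Neurod2 (chr11:98329646-98329895, minus strand): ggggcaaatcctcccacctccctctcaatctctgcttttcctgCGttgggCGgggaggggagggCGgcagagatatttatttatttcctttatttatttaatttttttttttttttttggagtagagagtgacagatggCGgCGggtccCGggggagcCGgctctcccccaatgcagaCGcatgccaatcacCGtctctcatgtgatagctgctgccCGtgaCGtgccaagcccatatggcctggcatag
Neurog3 (chr10:62132840-62133089, plus strand): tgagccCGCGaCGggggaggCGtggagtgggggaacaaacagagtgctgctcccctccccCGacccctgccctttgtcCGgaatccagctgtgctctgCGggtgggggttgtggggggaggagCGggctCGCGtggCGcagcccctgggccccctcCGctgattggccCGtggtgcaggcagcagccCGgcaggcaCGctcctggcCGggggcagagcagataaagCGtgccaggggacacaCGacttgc
Neurod6 (chr6:55681264-55681513, minus strand): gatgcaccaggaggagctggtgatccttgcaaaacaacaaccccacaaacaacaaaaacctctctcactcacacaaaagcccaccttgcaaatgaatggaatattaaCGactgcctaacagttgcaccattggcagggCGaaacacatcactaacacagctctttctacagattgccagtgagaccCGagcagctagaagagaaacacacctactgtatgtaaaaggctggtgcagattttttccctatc

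Neurog1 had 29 CG pairs in these 250 bases, Neurod1 22, Neurog3 18, Atoh1 14, Neurod2 11, Neurog2 8 and Neurod6 3, against a median of 10.0 over 21263 protein-coding promoters. Corrected for base composition, the observed over expected CpG ratio was 0.923 for Neurog1, 0.841 for Neurod1, 0.728 for Atoh1, 0.713 for Neurog2, 0.632 for Neurod2, 0.575 for Neurog3 and 0.236 for Neurod6, and 0.125 and 0.379 for the 2 entries of Neurod4. The median over all promoters was 0.530, so 6 genes lay above it, and Neurod6 and Neurod4 below. Over all promoters, divided at this median after the values were seen, the start base lay under a peak in 86.6% of the upper and 18.2% of the lower group in the MGE, 89.0% and 20.5% in the LGE, 90.4% and 21.1% in the CGE, and 86.5% and 17.8% in CTX. Neurod2 and Neurog3 belonged to the upper group without a peak over the start, and Neurod4 belonged to the lower group with one in the LGE.

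Motif matches in these 250 bases were few, counting both strands. CANNTG, the general E-box, was found before 4 of the 8 genes against 62.8% of all promoters. Among its specific forms, CAGATG occurred before Neurod2 alone, 118 bases before the start (12.4% of promoters), and CAGCTG before Neurog3 alone, 165 bases before the start (12.1%). CATATG occurred before Neurod1 and Neurod2 at 242 and 17 bases (2.91% of promoters), and CACGTG before none (6.63%), each of these 4 being a form of the general motif. The sequence CCAAT was present before 5 of 8 genes (35.4% of promoters) and TATAAA before none (11.6%).

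Of the 9 genes, 7 had a peak within 5 kb in the MGE against 65.0% of all protein-coding genes, 8 in the LGE against 64.2%, 7 in the CGE against 64.6% and 7 in CTX against 63.8%. Neurog1, Neurog2, Atoh1, Neurod1, Neurod2, Neurod6 and Bhlhe22 had one in all 4 lists, 7 of 9 against 61.3% of protein-coding genes. Neurog3 had none in any list, as did 32.1% of protein-coding genes, and Neurod4 had one in the LGE only. In the MGE list 3 of the 7 genes rested on weak peaks, with −log10 q of 1.29 at Neurog2, 1.65 at Neurog1 and 1.90 at Neurod2, and 4 genes kept a peak there when −log10 q of at least 2 was required.

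**Figure D1:**
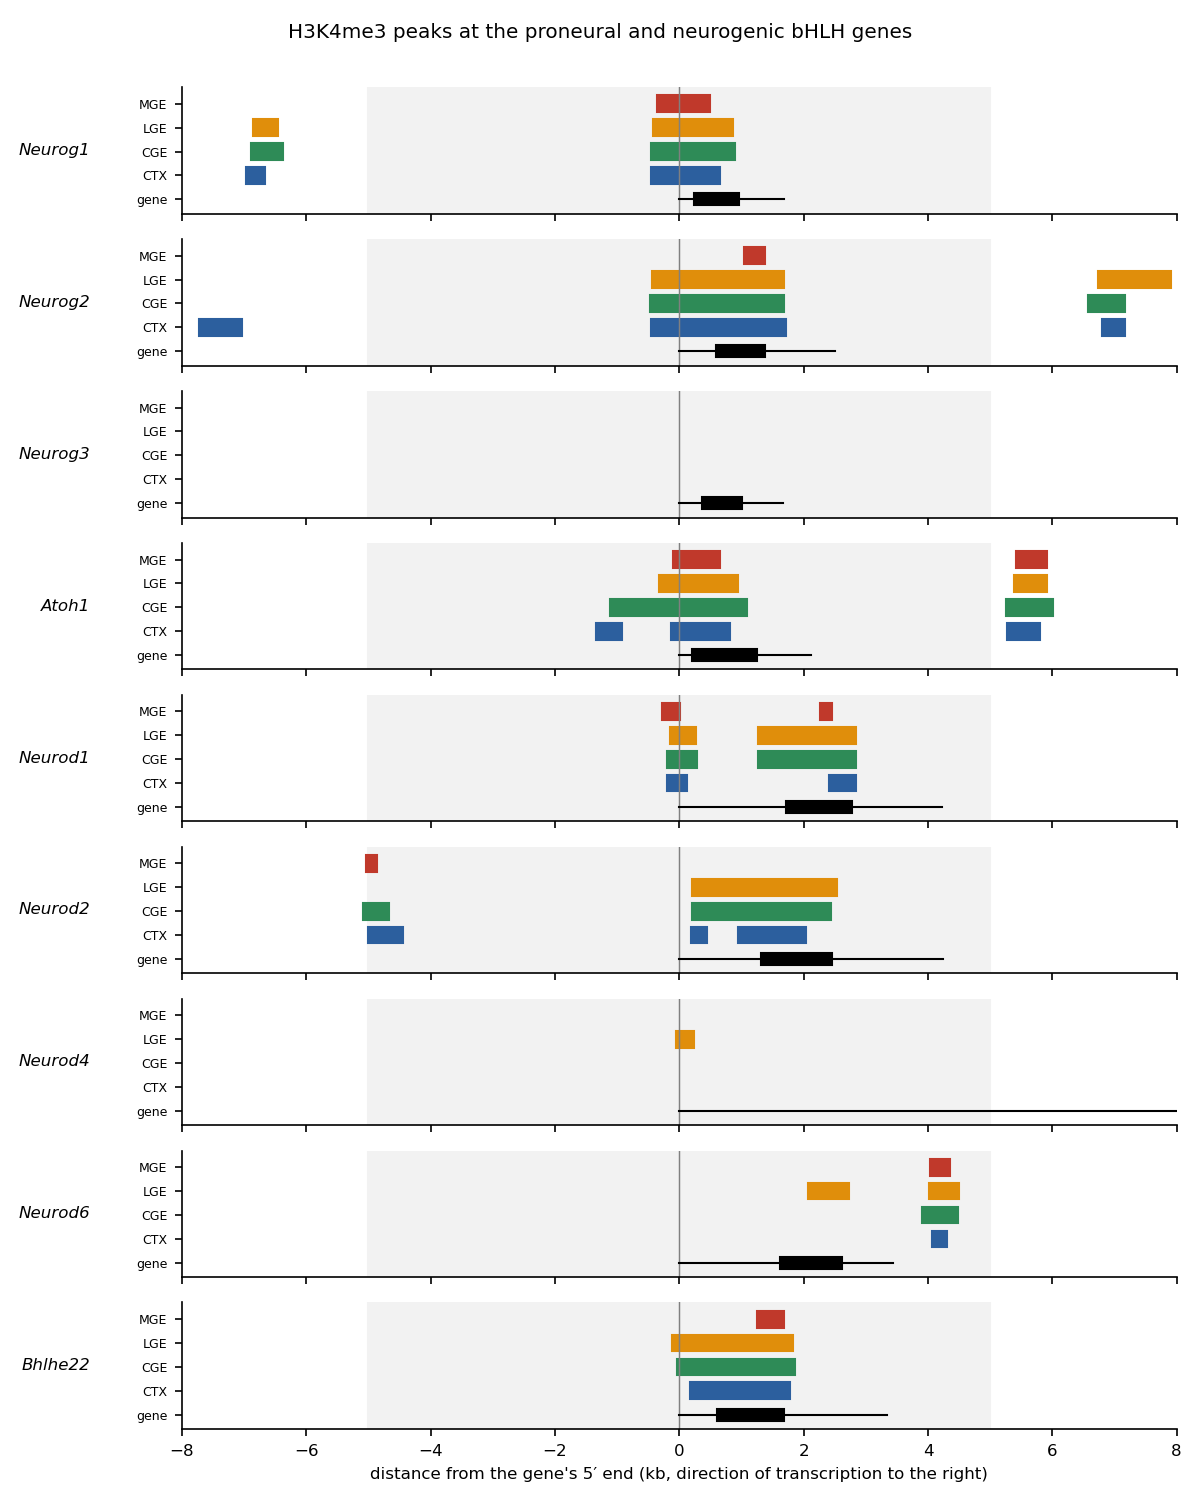
Peaks around the 9 genes, 1 row a list, drawn by distance in kb from the 5′ end of the gene with transcription to the right; the black bar is the coding sequence, the thin line the gene and the grey band the 5 kb window. Neurog1, Atoh1 and Neurod1 have a peak over the start in all 4 lists, whereas the body peaks of Neurod2 in the LGE, CGE and CTX lists begin 193 to 212 bp downstream of it and the peak of Neurod6 found in all lists lies past the 3′ end. The MGE peak at the Neurod1 start ends 4 bp downstream of the 5′ end.

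Neurog2, which specifies glutamatergic identity in cortical progenitors, lies at chr3:127633135-127635631 on the plus strand (GRCm38). Peaks covered 340 bases of its window in the MGE, 2123 in the LGE, 2143 in the CGE and 2169 in CTX. One peak of nearly the same extent spanned the start and the whole coding sequence in the LGE, CGE and CTX, from 441, 466 and 460 bp upstream to 1681, 1676 and 1708 bp downstream. In the MGE the only peak was 340 bp wide, began 1037 bp downstream of the start and covered 43.1% of the coding bases. The percentile of Neurog2 was 39.1 in the MGE, 88.1 in the LGE, 86.2 in the CGE and 94.9 in CTX, and the CTX peak was wider than 98.1% of the peaks of its list. Fold enrichment over the background of the peak caller was 3.27, 4.34, 4.77 and 4.89 in the same order, so the gene stood higher in its list by width than by enrichment, the CTX fold exceeding 46.7% of CTX peaks.

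Neurog1, the close relative of Neurog2 that acts beside it in dorsal progenitors and in cranial sensory neurons, lies at chr13:56250478-56252163 on the minus strand. Its covered bases were 844 in the MGE, 1273 in the LGE, 1360 in the CGE and 1125 in CTX, from a single peak over the start in each list. The percentiles were 56.4, 61.6, 61.5 and 70.0, a narrower range than that of Neurog2. Downstream the peak reached 491 bp in the MGE, 856 bp in the LGE, 902 bp in the CGE and 661 bp in CTX, and it covered 35.7%, 85.5%, 91.8% and 58.9% of the coding bases. Neurog1 was thus the most even of the genes with a peak in all 4 lists, its percentiles spanning 13.6 points.

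Neurog3, known from the endocrine progenitors of the pancreas, lies at chr10:62133090-62134763 on the plus strand. Its 3 annotated TSSs had no peak within 5 kb in any list, and the start of Fam241b, 1616 bp downstream on the opposite strand, lay in the same empty window. Its CpG ratio, 0.575, was the lowest of the 6 genes above the median.

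Atoh1, the proneural factor of cerebellar granule neurons and inner ear hair cells, lies at chr6:64729125-64731245 on the plus strand. It had 755 covered bases in the MGE, 1270 in the LGE, 2207 in the CGE and 1346 in CTX, with percentiles of 51.8, 61.5, 87.3 and 79.0. The CGE value came from 1 peak reaching 1115 bp upstream of the start, whereas in CTX this stretch held a separate 407-bp peak, 1333 to 927 bp upstream, beside a 939-bp peak over the start. The gene therefore carried a peak over its start in all 4 lists. A further peak began 5256 to 5419 bp downstream of the start in each list, just outside the window, while the peak just inside the limit was that of Neurod2 about 5 kb upstream, which the limit cuts in all 3 lists that hold it.

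Neurod1, which drives terminal differentiation of neurons and of pancreatic endocrine cells, lies at chr2:79452521-79456751 on the minus strand. In every list it had 2 separate peaks, one over the start and one over the coding sequence in the gene body. The start peak was 287 bp wide in the MGE, 420 bp in the LGE, 494 bp in the CGE and 327 bp in CTX, and the body peak was 205 bp, 1580 bp, 1578 bp and 435 bp. Its covered bases were therefore 492, 2000, 2072 and 762, and its percentiles 41.7, 85.9, 84.9 and 51.2. The range came from the body peak, which held all of the coding bases in the LGE and CGE, 34.9% in CTX and 19.1% in the MGE. Fold enrichment ran the other way between the peaks in CTX, where the start peak reached 6.17 and the body peak 3.40. In the MGE the start peak ran from 282 bp upstream to 4 bp downstream of the 5′ end, so it met the start only at its edge. The start of Cerkl lies 34 bp upstream on the same strand, so the start peak cannot be assigned to either gene, and the lincRNA Gm26755 starts on the opposite strand inside the body region, 2766 bp downstream.

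Neurod2, a regulator of cortical projection neuron differentiation, lies at chr11:98325415-98329648 on the minus strand. Coverage came to 138 bases in the MGE, 2323 in the LGE, 2552 in the CGE and 1894 in CTX, with percentiles of 35.7, 90.9, 91.5 and 92.0. No list had a peak over its start. The nearest peak began 207 bp downstream in the LGE, 212 bp in the CGE and 193 bp in CTX, and ran to 2529 bp and 2437 bp in the LGE and CGE, whereas the CTX list held 2 pieces of 246 bp and 1096 bp. These CTX pieces were weak, with −log10 q of 2.83 and 2.17 against a list median of 8.57. With lists cut to equal size the CTX coverage of Neurod2 was 0. In the MGE the gene body had no peak, and the 138 bases belonged to the edge of a 180-bp peak centred about 5 kb upstream that was also called in the CGE (407 bp) and CTX (556 bp). The gap over the start thus recurred in the 3 lists with coverage of the body, and the percent of coding bases covered was 100 in the LGE, 98.0 in the CGE, 63.4 in CTX and 0 in the MGE.

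Bhlhe22, a repressor active in differentiating cortical and other neurons, lies at chr3:18054174-18057517 on the plus strand. Covered bases numbered 434 in the MGE, 1943 in the LGE, 1893 in the CGE and 1605 in CTX, with percentiles of 40.6, 84.7, 80.8 and 86.8. The LGE and CGE peaks began 119 and 36 bp upstream of the start, and the CTX peak 172 bp downstream of it. All 3 covered the whole coding sequence, while the MGE peak was confined to 1250 to 1683 bp downstream and 40.3% of the coding bases. That narrow MGE peak had the highest fold of the gene, 6.17, against 4.19 in the LGE, 5.17 in the CGE and 4.60 in CTX.

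Neurod6, a marker of differentiating cortical pyramidal neurons, lies at chr6:55677822-55681263 on the minus strand. Its covered bases were 328 in the MGE, 1132 in the LGE, 584 in the CGE and 242 in CTX, and its percentiles 38.9, 54.5, 37.4 and 38.3. No list had a peak over the start. The peak shared by all 4 lists lay between 3902 and 4494 bp downstream, beyond the 3′ end of the 3442-bp gene, and the LGE list added a 652-bp peak, 2076 to 2727 bp downstream, over 54.2% of the coding bases. Neurod6 thus had its fewest covered bases in CTX.

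Neurod4, a factor of committed neuronal precursors, lies at chr10:130268152-130280240 on the minus strand. Its LGE peak spanned the start, was 282 bp wide with a fold of 3.40 and −log10 q of 2.35, and was wider than 1.85% of the peaks of that list. Its covered bases were therefore 0 in the MGE, 282 in the LGE, 0 in the CGE and 0 in CTX. The narrowest peak of the LGE list was 243 bp, so the peak lay close to the smallest size called.

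**Figure D2:**
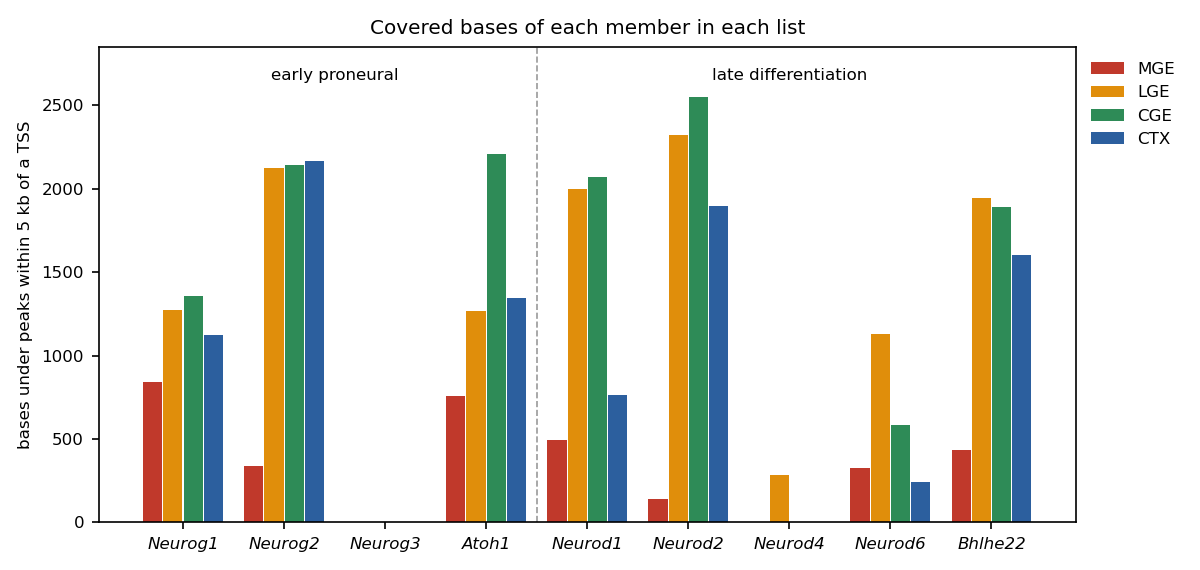
Bases under peaks within 5 kb of a TSS (bars from 0) for each gene in the 4 peak lists, early proneural factors on the left and late differentiation factors on the right. In the MGE the bars of Neurog2, Neurod2 and Bhlhe22 stand at 340, 138 and 434 bases, against 1605 to 2552 in the other 3 lists.

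The region comparison asked whether these genes, known from the cortical lineage, were more covered in CTX than in the eminences. A gene was counted as higher in CTX when its percentile there was at least 10 points above that in each of MGE, LGE and CGE. By this rule 0 of the 8 genes with a peak in any list were higher in CTX, against 3.88% of the 14900 protein-coding genes with a peak in any list, and 0 were lower, against 5.18%. Percentiles have an upper limit, and Neurod2, at 90.9 in the LGE and 91.5 in the CGE, could not lie 10 points higher in CTX than in either. Neurog2, at 88.1 in the LGE, had little room to do so. The count of 0 higher in CTX therefore cannot decide whether such genes were more covered there. Neurog1 came closest, 8.41 points above its highest eminence, followed by Neurog2 at 6.74 points, Bhlhe22 at 2.05 and Neurod2 at 0.442. These 4 had their highest percentile in CTX, as did 31.4% of genes, whereas Neurod1, Neurod4 and Neurod6 had it in the LGE (18.5%) Atoh1 in the CGE (17.2%), and none in the MGE (32.8%). The count higher in CTX changed to 1 with lists cut to equal size (Neurog1), to 1 with covered bases in place of the percentile (Neurog2) and to 2 with the percentile taken among genes with a peak (both).

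Each eminence gave a different picture against CTX. Against MGE, 5 genes were at least 10 points higher in CTX (10.7% of genes) and 0 were lower (12.1%). The 5 were Neurog1, Neurog2, Atoh1, Neurod2 and Bhlhe22, with gains of 13.6, 55.8, 27.2, 56.2 and 46.2 points. Against LGE, Atoh1 alone was higher in CTX, by 17.5 points (13.4% of genes), and Neurod1, Neurod4 and Neurod6 were lower (14.1%), their CTX minus LGE differences being -34.7, -36.1 and -16.2 points. The Neurod4 difference was that between 1 narrow peak of 282 bp in the LGE and no peak in CTX. Against CGE, 0 genes were higher (15.8%) and Neurod1 was lower (15.2%), at -33.8 points. The contrast of CTX with the eminences was thus carried by MGE, while LGE and CGE stood close to or above CTX for most of the genes.

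The converse count, genes at least 10 percentile points lower in the MGE than in each other list, was added after the values were seen. It held for Neurog2, Neurod2 and Bhlhe22, 3 of 8 against 4.05% of the genes with a peak in any list. MGE had the fewest covered bases for 6 of the 8 genes, against 52.1% of genes, and the most for none, against 4.88%. The most covered bases were found in the CGE for 4 genes (72.7%), in the LGE for 3 (16.3%) and in CTX for 1, Neurog2 (4.99%). Neurog2 and Bhlhe22 met the rule under every alternative run, and Neurod2 did not when the lists were cut to equal size. The cortex markers moved in the same direction, with all 4 at least 10 points lower in the MGE than elsewhere and a summed coverage of 2431 bases there against 11389 to 16015, and the part of cortical cells or of pooled nuclei in this result was not tested. The MGE list also had the narrowest median peak and fewer stated reads than the LGE and CGE, and the part of these differences was not tested either.

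**Figure D3:**
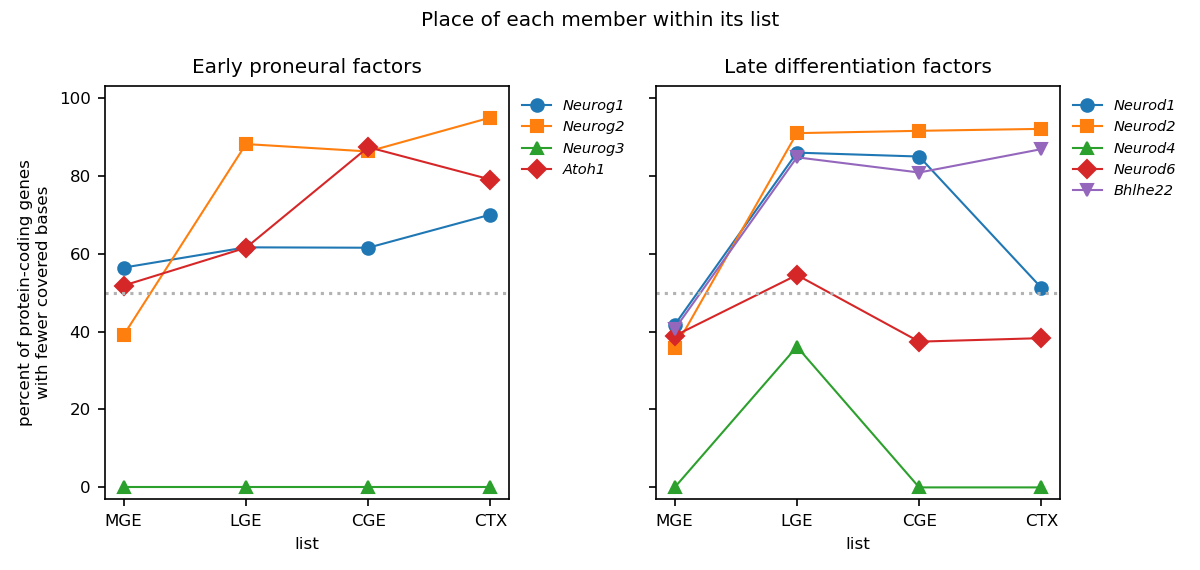
Percentile of covered bases (percent of protein-coding genes with fewer covered bases in the same list) for the early proneural factors (left) and the late differentiation factors (right), with lines joining the values of 1 gene and no order among the lists. Neurog2, Neurod2 and Bhlhe22 lie at 35.7 to 40.6 in the MGE and at 80.8 to 94.9 elsewhere, and Neurod1 falls to 51.2 in CTX.

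Early and late factors were then compared within each list. The median covered bases of the 4 early factors were 548 in the MGE, 1272 in the LGE, 1752 in the CGE and 1236 in CTX, and those of the 5 late factors 328, 1943, 1893 and 762, beside 717, 1036, 1126 and 733 over all protein-coding genes. Of the 20 pairs of 1 early and 1 late factor, the early factor had more covered bases in 13 pairs in the MGE, 8 in the LGE, 10 in the CGE and 11 in CTX. Late factors had more in 6, 12, 9 and 8 pairs, and the remaining pair in the MGE, CGE and CTX was a tie of Neurog3 and Neurod4 at 0. The early factors therefore led in the MGE and CTX and the late factors in the LGE, with CGE nearly even and genes of both classes at 0 bases in the CGE (Neurog3 and Neurod4) beside others above 2000 (Neurog2, Atoh1, Neurod1 and Neurod2). With so few genes the order depended on single members, and the early factor led in 6 of 15 pairs in CTX without Neurog2, in 5 of 16 pairs in the LGE without Neurod4, and in 5 of 20 pairs in the MGE when −log10 q of at least 2 was required. It led in 11 of 20 pairs in the LGE and 13 in the CGE with a 2 kb window, and in 8 and 10 of 15 pairs without Neurog3.

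The position of the mark relative to the start was compared next. The 5′ end of the gene lay under a peak for 3 of the 7 genes with one in the MGE against 76.1% of protein-coding genes with a peak, for 6 of 8 in the LGE against 80.6%, for 5 of 7 in the CGE against 82.0% and for 4 of 7 in CTX against 77.4%. Among early factors the count was 2 of 3 in the MGE and 3 of 3 in the other lists, and among late factors 1 of 4, 3 of 5, 2 of 4 and 1 of 4 for MGE, LGE, CGE and CTX. The late factor counted in the MGE was Neurod1, whose peak ended 4 bp downstream of the 5′ end. Of the late factors, Neurod2 had its body covered without the start in the LGE, CGE and CTX. So had Neurod6 in the LGE and Bhlhe22 in the MGE and CTX. The early factor Neurog2 showed the same in the MGE. Neurod2 and Neurod6 had no start peak in any list. More bases were covered downstream than upstream of the start for 5 of the genes in the MGE, 8 in the LGE, 6 in the CGE and 7 in CTX, beside 78.2%, 81.3%, 81.3% and 78.7% of protein-coding genes with any. The coding sequence was a single unbroken stretch in 9 of 9 genes against 15.9% of protein-coding genes, so a peak over the gene body could take in all of it. At least 50% of the coding bases lay under peaks for 0 of the 7 genes with a peak in the MGE, 7 of 8 in the LGE, 6 of 7 in the CGE and 5 of 7 in CTX, beside 30.3%, 41.3%, 44.7% and 33.0% of protein-coding genes with a peak and an unbroken coding sequence. Among the genes with a peak, less than 50% of the coding bases were thus covered in the MGE, and at least 50% for most genes in each other list. Neurog3 and Neurod4 had no coding base under a peak in any list.

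Genes with the most similar profile were sought for the 6 members whose percentiles spanned at least 20 points, as the smallest summed absolute percentile difference over the 4 lists. Neurod2 and Neurog2 were among each other's nearest 3, with a summed difference of 14.4 points, although the former is a late and the latter an early factor. The others were Rassf10 and Larp1b for Neurog2, and Dmrta2 and Wnt11 for Neurod2. Bhlhe22 was nearest to Larp1b (5.56 points), Tifa (9.38) and the bHLH gene Nhlh1 (11.5). Neurod1 was nearest to Hrk (5.32), Cerkl (5.47), which shares its peaks, and Epb41l4b (8.89). Atoh1 was nearest to Ocel1 (14.7), Klhdc4 (15.0) and Mmd2 (17.8), and Neurod4, with its single narrow peak, to Plin5, Hoxc4 and Gm13272, each with 280 to 290 bases in the LGE and 0 elsewhere.

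The dimer partners, inhibitors, other neural bHLH genes and known downstream genes of the family, pooled as 1 list, had higher median percentiles than the 9 members in every region. The other neural bHLH genes alone did not, with medians of 77.9 in the CGE and 50.5 in CTX. Of these 26 genes, 24 had a peak in the MGE (65.0% of all protein-coding genes), 25 in the LGE (64.2%), 26 in the CGE (64.6%) and 25 in CTX (63.8%). Their median percentiles were 85.6, 89.7, 92.0 and 88.3, against 39.1, 61.6, 80.8 and 70.0 for the 9. All 3 E proteins were covered in every list, Tcf4 the most in sum over the lists with 3433, 5930, 6126 and 4455 bases, and all 7 inhibitors were too, led in sum by Hes5 with 2500, 3986, 4279 and 3131. The partners and the brakes of these factors thus had peaks in each region, including MGE, as did 61.3% of all protein-coding genes.

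Among the 10 other neural bHLH genes, Hes6 was the most covered in sum over the lists, with 2255 bases in the MGE, 2354 in the LGE, 2507 in the CGE and 2202 in CTX. Olig3 had peaks in the LGE (894 bases) and CGE (833) only, and Bhlhe23 in the CGE (1968) and CTX (269) only. The 6 downstream genes were covered in every list, with the Notch ligand gene Dll1 highest in sum at 3522, 4147, 4777 and 3471 bases. In the rule for lower coverage in the MGE, 4 of the 26 were counted (4.05% of genes with a peak in any list). The 4 were Nhlh1, Nhlh2, Eomes and Tbr1. Eomes, a marker of intermediate progenitors of the cortex, had 445 bases in the MGE against 2831 in the LGE, 2878 in the CGE and 1699 in CTX. Of the 26, 0 were higher in CTX than in every eminence (3.88% of genes with a peak in any list) and 2 were lower (5.18%). The 2 were Olig1 and Olig2, the latter with 283 bases in CTX against 2621 to 2771 in the eminences. The median percentile of the 26 in the CGE was 92.0, so many of them could not lie 10 points higher in CTX. Hence the profile of Neurog2, Neurod2 and Bhlhe22 was shared by 4 genes of this list, of which Eomes and Tbr1 also served as cortex markers.

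**Figure D4:**
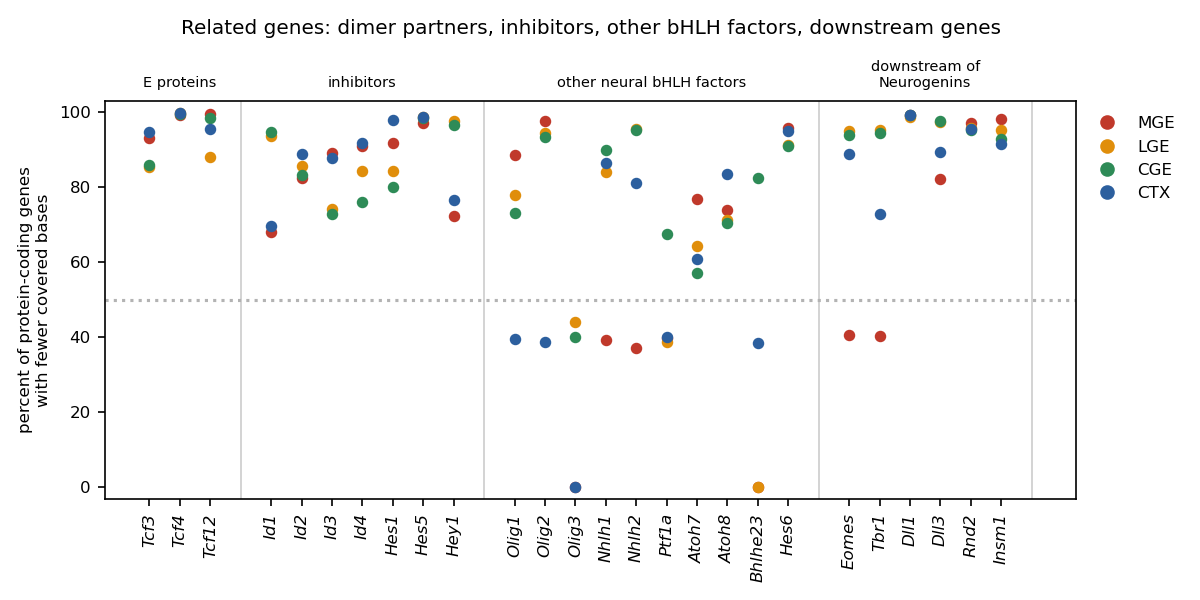
Percentile of covered bases in each list for the 26 related genes, grouped as E proteins, inhibitors, other neural bHLH factors and genes downstream of Neurogenins, with a dotted line at the middle of the scale. E proteins and inhibitors lie above it in all 4 lists, while Nhlh1, Nhlh2, Eomes and Tbr1 lie at 37.2 to 40.7 in the MGE and at 72.8 or higher elsewhere.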

How the data were processed

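The authors aligned reads of 12 H3K4me3 CUT&Tag libraries to GRCm38/mm10 with Bowtie2 and filtered them. Per the submitters' processing notes Picard, SAMtools and deepTools were also used. Replicates were merged, and broad peaks were called with MACS, whose version, threshold and control are not given in the sources used here. The deposited lists hold peak positions, fold enrichment (a ratio) and −log10 q values. The deposited score column, which the authors' peak caller made as the q value rescaled, was not used. Between 31 and 64 peak numbers are absent from each list's numbering and were not analysed here.

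Peaks overlapping 5 kb windows by at least 1 bp around GENCODE M21 TSSs were joined to 21951 protein-coding genes (Python 3.11.15, pandas 2.3.3, numpy 2.4.6). With 1 list a region no test was run. The code was tested on simulated data. All 9 members were named. Of other genes, the 3 nearest profiles of each member spanning 20 points, related genes with peaks in 1 to 3 lists and the most covered of each group were named. Nhlh1, Nhlh2, Eomes, Tbr1, Olig1, Olig2, Nkx2-1, Lhx6, Lhx8, Emx1 and Pax6 were named after their values were seen. The members and lists were chosen with earlier results of these data known. Alternatives varied the window, TSSs, peak filters, percentile reference, measure and grouping. 1 gene of the related list is not reported here.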

Additional observations from a re-analysis of the deposited data

How the results depend on the processing

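No paired analysis was possible because each region has 1 peak list made from merged replicates, and likewise no replicate could be left out. Of the counts and pair numbers recomputed under each alternative, 126 stayed within 1.5 times the value given above and 22 did not. Pair numbers were compared as plain counts, although regrouping or leaving out a member changed the pairs from 20 to 18, 16 or 15. The tally therefore does not measure how steady the share of pairs led by the early factor was. With −log10 q of at least 2, 4 members had a peak in MGE, the early factor led in 5 MGE pairs, and 5 members were lower in MGE than elsewhere. With lists cut to equal size, again 4 members had a peak in MGE and the early factor led in 5 MGE pairs, and 1 member was higher (Neurog1) and 1 lower (Neurod6) in CTX. In CTX 5 members then had a peak, and Neurod2 and Neurod6 had none there. Peaks held to a common minimum width of 243 bp left 1 member lower in CTX (Neurod6). Among genes with a peak, 2 members were higher in CTX (Neurog1 and Neurog2) and 5 lower in MGE, and with covered bases in place of the percentile 1 was higher (Neurog2) and 1 lower (Neurod6) in CTX and 6 were lower in MGE. With Neurod1 and Neurod4 counted as early, the early factor led in 6 of 18 CTX pairs. Leaving out 1 member, it led in 8 of 15 MGE pairs without Neurog1, in 4 LGE, 6 CGE and 6 CTX pairs of 15 without Neurog2, in 8 MGE and 6 CGE pairs of 15 without Atoh1, and in 5 of 16 LGE pairs without Neurod4 or without Neurod6. Some of these settings left fewer peaks or fewer pairs, and the cause of the changes was not tested. With a 2 kb window the early factor led in 11 of 20 LGE and 13 of 20 CGE pairs, and without Neurog3 in 8 and 10 of 15. The low MGE values of Neurog2 and Neurod2 rest on weak peaks, with −log10 q of 1.29 and 1.90. That of Bhlhe22 rests on a narrow peak with −log10 q of 7.31. The part of the lower MGE depth in the low MGE values was not tested.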

Other observations

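Peaks 5 to 20 kb from the starts of the 9 genes, a range chosen after the values were seen, were found at Neurog1, Neurog2, Atoh1 and Neurod2, and at none of Neurog3, Neurod1, Neurod4, Neurod6 and Bhlhe22. The share of all protein-coding genes with such peaks was not computed, so these peaks are only described. Downstream of Atoh1 all 4 lists held a peak beginning 5256 to 5419 bp from the start, of 500 bp in the MGE, 542 bp in the LGE, 762 bp in the CGE and 524 bp in CTX. Its fold enrichment was 3.52, 4.34, 4.63 and 3.76, beside 4.37, 4.49, 4.48 and 4.26 for the peak over the Atoh1 start. Upstream of Neurog1 a peak of 412 bp in the LGE, 522 bp in the CGE and 309 bp in CTX began 6369 to 6667 bp from the start, and the MGE list had none.

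Neurog2 had a peak beginning 6578 to 6797 bp downstream in the LGE (1176 bp), CGE (596 bp) and CTX (372 bp), again with none in the MGE. The CTX list alone held a 692-bp peak 7724 to 7033 bp upstream of Neurog2 and a 501-bp peak 13064 to 13564 bp downstream, the latter with a fold of 6.23, above the 4.89 of the peak over the start. Upstream of Neurod2 all 4 lists held a peak, between 8914 and 10772 bp from the start, of 391 bp in the MGE, 911 bp in the LGE, 1859 bp in the CGE and 1237 bp in CTX. The TSS nearest to it was that of Neurod2 in the MGE and that of its neighbour Ppp1r1b in the LGE, CGE and CTX. Downstream of Neurod2 a peak began at 10738 to 10789 bp in the LGE (751 bp) and CTX (194 bp). A 127-bp peak in the MGE, 13126 to 13000 bp upstream, was also nearest to the TSS of Ppp1r1b. All 4 lists held a peak over the start of Ppp1r1b.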
